A study of Mus musculus with 8 samples.

Results

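The genes described here are 10 markers and secreted signals of liver sinusoidal endothelial cells, chosen by name for what they are known to do, at a time when earlier results of these data were known. They are the scavenger receptors Stab1 and Stab2, the surface or secreted markers Gpr182, Clec4g, Oit3 and Lyve1, the ligand Bmp2, the R-spondin Rspo3 and the Wnt ligands Wnt2 and Wnt9b. Each was read by 1 probe, found through the RefSeq accession that the array design gives it. All 10 were among the 14312 genes tested. The experiment set hepatocellular carcinoma (HCC) of male mice lacking miR-122, the main microRNA of hepatocytes, against liver of age-matched males in which the gene was floxed, which 1 label also calls wild type. Both groups had a mixed background of C57BL/6J and 129S/Svj. Each of 8 arrays of 2 colours carried RNA of 1 tumor labelled with Cy5 beside Cy3-labelled control liver, with no swap of the dyes. A dye effect would thus go the same way on every array and cannot be told apart from a tumor effect. Arrays are numbered as their tumors are. The ages, the cells in which the knockout acts, whether any tumors shared a mouse and whether the control RNA was pooled are not given in the sources used here. The p-values then measure only the spread between these samples. No liver of a knockout without a tumor was among the samples, so loss of the microRNA and tumor growth cannot be told apart.

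Sinusoidal endothelial cells line the capillaries of the liver. They have open pores and no firm basement membrane, and they clear waste molecules from the blood through scavenger and lectin receptors. They also send signals to the hepatocytes around them. Wnt2, Wnt9b and Rspo3, made most strongly near the central vein, keep pericentral hepatocytes in their Wnt-driven state, while Bmp2 and its relative Bmp6 drive hepatocytes to make the iron hormone hepcidin. In chronic injury and in tumors these cells are known to lose such features and to become more like ordinary capillary endothelium.

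Between 38.5% and 51.9% of probes were well above background in the tumor channels and between 45.1% and 54.3% in the control channels. The array of tumor 8 was the dimmest in Cy5, and its ratios were the least like those of the other arrays (mean r across genes 0.528, against 0.629 to 0.740). Its control channel also held skeletal muscle transcripts. Over 8 tested muscle genes the median control signal was 12.02 on the log2 scale there, against 7.04 to 7.25 elsewhere. The median tumor signal of these genes was also highest there, at 8.75 against 7.12 to 7.66. The control channels of arrays 1 and 2 were the most alike of 28 pairs (r = 0.996, against 0.982 to 0.993). With 8 arrays, precision is limited.

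In the tumors, 6 of the 10 genes were lower than in control liver and 0 were higher, at an adjusted p under 0.05 and a log2 ratio of at least 1 in size. Of all genes tested, 5.94% were lower and 9.54% higher by the same rule. The 6 genes were Clec4g, Oit3, Bmp2, Gpr182, Rspo3 and Stab2, with falls from 8.74-fold in Clec4g to 2.71-fold in Stab2. Wnt2 and Wnt9b had an adjusted p under 0.05 but ratios too small for a call, and Stab1 and Lyve1 passed on neither count. Wnt2 and Wnt9b were bright enough to be tested only in their control channels, which favours ratios below 0. Their p-values are thus no independent support for a fall. In 7 of the 10 genes the ratio was below 0 on all 8 arrays, which held for 16.6% of all genes tested. The 7 include Wnt2 and Wnt9b, whose tumor channels were well above background on 0 and 1 arrays. On arrays 4 to 7 neither channel of Wnt2 was, so its sign there says little. In 6 of the 10 every tumor signal lay under every control signal, which held for 8.45% of genes. These were the called genes other than Gpr182, and Wnt9b, which was well above background in 1 tumor channel. In 0 of the 10 every tumor signal lay above every control signal (8.33% of genes). In whole tissue, fewer sinusoidal cells and less RNA per cell cannot be told apart.

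**Figure D1:**
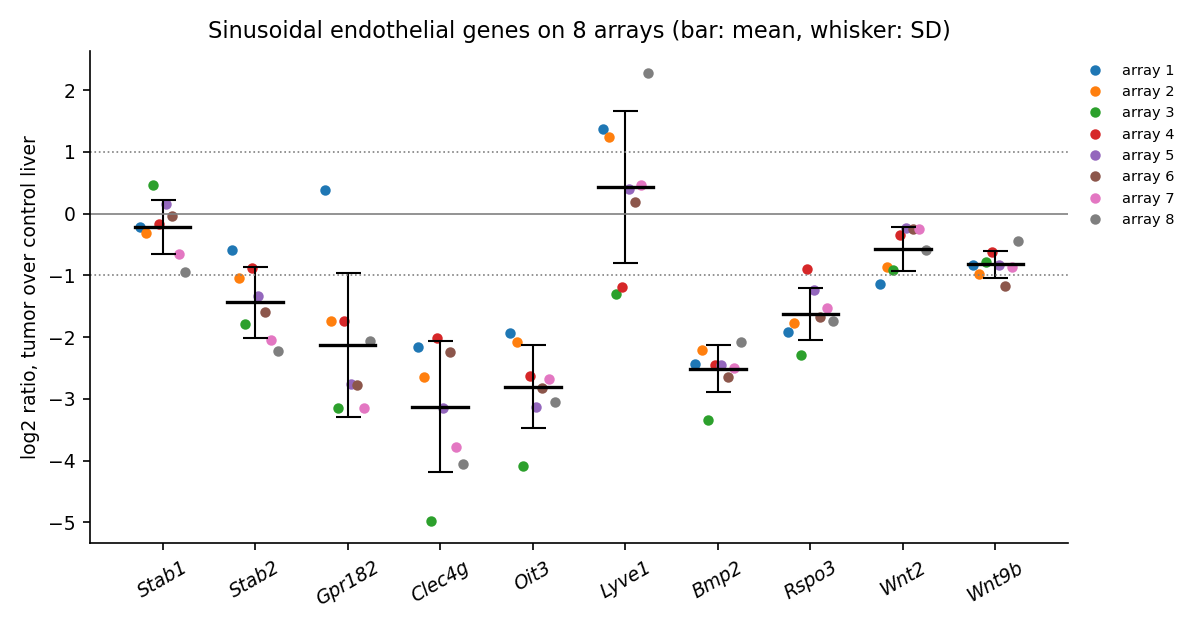
Log2 ratio of tumor over control liver for the 10 sinusoidal endothelial genes, with 1 point per array, a bar at the mean and whiskers of 1 SD (n = 8); dotted lines mark ratios of 1 and -1. Clec4g, Oit3, Bmp2, Rspo3 and Stab2 lie below 0 on all 8 arrays, Gpr182 lies at 0.39 on array 1 and below 0 on the others, and Lyve1 spreads from -1.30 to 2.27.

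Stab1 and Stab2 are large scavenger receptors of the same family that take up hyaluronan, modified lipoproteins and other waste from the blood. Macrophages make Stab1 as well, whereas Stab2 is more restricted to sinusoidal endothelium. The log2 ratios of Stab2 on arrays 1 to 8 were -0.59, -1.04, -1.78, -0.89, -1.33, -1.59, -2.05 and -2.23. Its control signal was even, from 12.42 to 12.82 on the log2 scale, and its tumor signal ran from 10.35 to 11.83, so that the channels did not overlap. Stab2 fell by 1.44 ± 0.58 (SD, n = 8; adjusted p = 1.86e-04), and by the smallest amount on array 1. The log2 ratios of Stab1 were -0.23, -0.32, 0.46, -0.17, 0.15, -0.04, -0.66 and -0.95. Its tumor signals (10.50 to 11.80) spanned its control signals (11.25 to 11.76), and its mean ratio of -0.22 ± 0.44 did not pass (adjusted p = 0.231). The ratio of Stab2 was below that of Stab1 on all 8 arrays, by a mean of 1.22 ± 0.60 on the log2 scale. This pair was chosen after the values were seen, so the difference is a description.

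The promoters of these 2 relatives are shown because their ratios differed, and that of Clec4g because it fell most. RefSeq's table for the assembly GRCm38.p6 held a start site for 5 of the 10 genes (Stab1, Stab2, Clec4g, Wnt2 and Wnt9b). The windows reach from 250 bases before the start to 50 after it, of which the 250 bases before are printed. They were searched on both strands for AGATAA and TGATAA, which GATA factors can bind, and for CCGGAAG and CAGGAAG, which ETS factors can bind. Matches are in capitals. All 3 genes lie on the minus strand: Stab1 at chr14:31168642-31168891, Stab2 at chr10:87007943-87008192 and Clec4g at chr8:3720652-3720901.
Stab1: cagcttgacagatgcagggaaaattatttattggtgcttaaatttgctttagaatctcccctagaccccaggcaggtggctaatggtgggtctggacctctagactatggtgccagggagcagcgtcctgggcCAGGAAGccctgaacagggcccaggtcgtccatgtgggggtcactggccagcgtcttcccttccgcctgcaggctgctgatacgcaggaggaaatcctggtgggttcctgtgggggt
Stab2: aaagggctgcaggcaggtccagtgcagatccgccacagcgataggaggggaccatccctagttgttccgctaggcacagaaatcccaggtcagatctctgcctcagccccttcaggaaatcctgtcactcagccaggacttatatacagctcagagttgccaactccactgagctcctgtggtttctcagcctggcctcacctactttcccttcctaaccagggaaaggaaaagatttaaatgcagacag
Clec4g: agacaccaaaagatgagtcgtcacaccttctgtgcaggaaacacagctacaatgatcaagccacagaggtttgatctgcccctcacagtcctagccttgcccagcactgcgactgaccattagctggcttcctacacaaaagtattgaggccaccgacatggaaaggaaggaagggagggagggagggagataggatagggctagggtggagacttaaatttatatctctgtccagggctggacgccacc
The window of Stab1 held CAGGAAG once, from -117 to -111 relative to the start, a word found in 13.3% of 32851 such windows. Those of Stab2 and Clec4g held none of the 4 words, nor did that of Wnt9b. The window of Wnt2 held TGATAA on the opposite strand from -9 to -4, a word found in 9.05% of windows, while AGATAA is in 11.2% and CCGGAAG in 8.86%. A match is no evidence of binding.

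Clec4g, a lectin receptor of sinusoidal endothelium in liver and lymph node, had the largest fall of the 10. Its log2 ratios on arrays 1 to 8 were -2.17, -2.64, -4.98, -2.01, -3.14, -2.24, -3.78 and -4.06. The lowest control signal (12.70) stood 1.23 above the highest tumor signal (11.47), and tumor 3 was the lowest at 8.11. The mean fall was 3.13 ± 1.06 (adjusted p = 5.49e-05). Oit3, a secreted protein with a zona pellucida domain, had ratios of -1.93, -2.08, -4.09, -2.63, -3.13, -2.82, -2.69 and -3.05. Its controls lay within 10.55 to 11.00 and its tumors within 6.46 to 8.83, and again tumor 3 was lowest. Oit3 fell by 2.80 ± 0.67, which is 6.97-fold (adjusted p = 9.01e-06).

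Gpr182 is a chemokine-scavenging receptor of sinusoidal and lymphatic endothelium. Its ratios were 0.39, -1.75, -3.15, -1.74, -2.75, -2.77, -3.15 and -2.06. The control signal varied from 11.83 to 12.71, while tumor 1 at 12.82 lay above every control and the other 7 tumors lay between 8.67 and 10.49. The ratio was therefore below 0 in 7 of 8 tumors. The mean fall over all 8 was 2.12 ± 1.17 (4.36-fold, adjusted p = 8.87e-04). On slide row 1 alone (arrays 1 to 4) it was 1.56 and did not pass (adjusted p = 0.0659), and without array 1 it was 2.48. The neighbours of Gpr182 in the order of falls, Bmp2 and Rspo3, lay within its SD.

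Lyve1, a hyaluronan receptor of sinusoidal and lymphatic endothelium, was not called. Its log2 ratios were 1.36, 1.24, -1.30, -1.19, 0.39, 0.19, 0.46 and 2.27, above 0 on 6 arrays. The control signals were dim, from 6.65 to 7.89, and tumor signals from 6.26 to 9.06 lay on both sides of them. Tumor 3 was not well above background. The mean of 0.43 ± 1.23 did not pass (adjusted p = 0.355), and Lyve1 had the largest SD of the 10 genes. Of 8 tested lymphatic endothelial genes, a list that also holds Lyve1, 2 were higher and 0 lower, and the list's mean ran from -0.03 to 0.88 between arrays. The higher ones were Thy1 (1.46 ± 0.73), also made by fibroblasts and T cells, and Fxyd6 (1.56 ± 1.77, adjusted p = 0.0323). Fxyd6 lost its call without array 1, 2, 3, 4, 5 or 6, with adjusted p-values from 0.0543 to 0.0794.

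**Figure D2:**
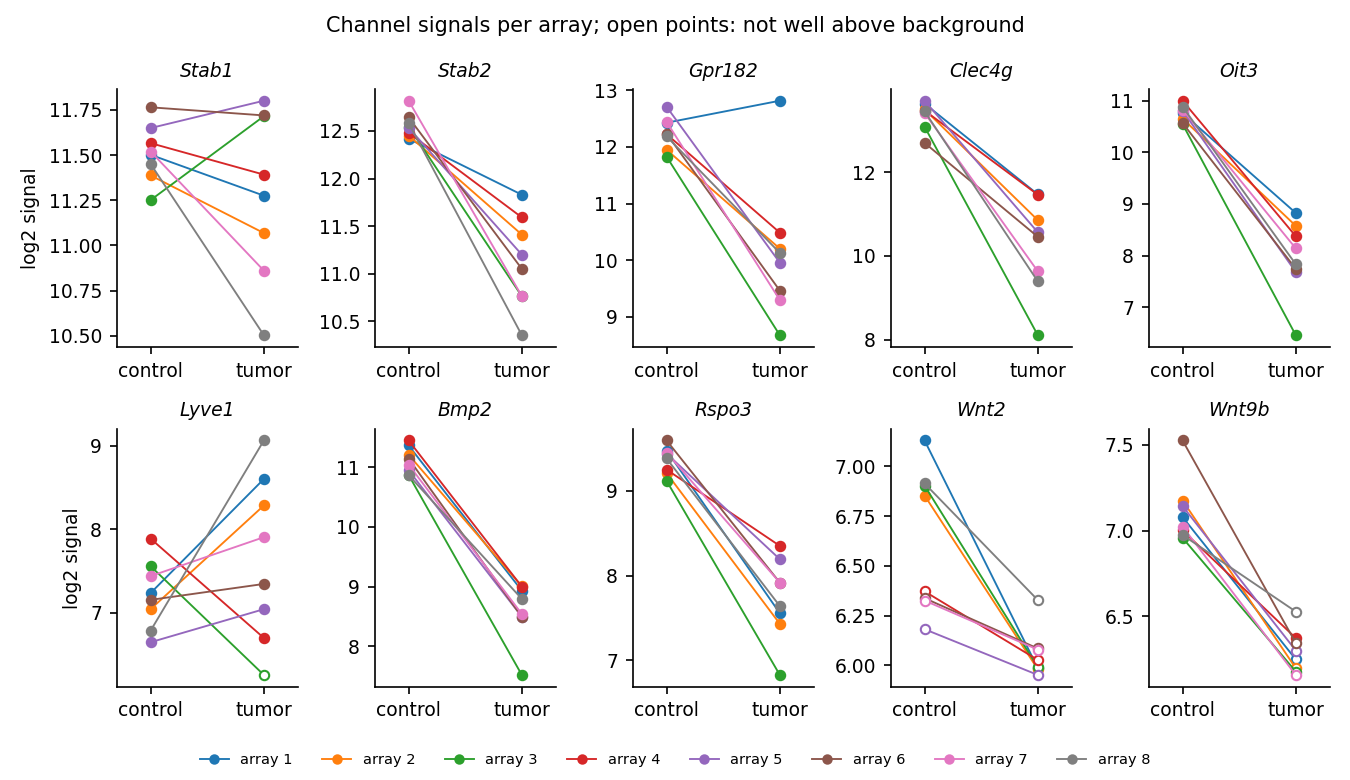
Normalized log2 signal of each gene in the control (Cy3) and tumor (Cy5) channel, with 1 line per array and open points where a spot was not well above background; each panel has its own axis. The 8 controls of Stab2 lie within 12.42 to 12.82 and all its tumors lie below them, tumor 1 stands apart for Gpr182 at 12.82, and all tumor points of Wnt2 are open.

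Bmp2, the ligand by which sinusoidal cells drive hepcidin in hepatocytes, fell in every tumor, and furthest in tumor 3. Its ratios on arrays 1 to 8 were -2.43, -2.21, -3.35, -2.45, -2.45, -2.65, -2.50 and -2.07. Its controls lay between 10.87 and 11.45 and its lowest tumor at 7.52. The lowest control stood 1.86 above the highest tumor, the widest gap among the 10 genes. The mean fall of 2.51 ± 0.38 is 5.71-fold (adjusted p = 1.25e-06). Bmp6, the other endothelial ligand of this pathway, had a ratio of 0.82 ± 0.94, above 0 on 7 arrays and too small for a call (adjusted p = 0.0356).

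Of the Wnt signals, Rspo3 was the best measured. R-spondins bind Lgr receptors and keep Wnt receptors at the cell surface. The ratios of Rspo3 were -1.91, -1.77, -2.28, -0.90, -1.24, -1.67, -1.53 and -1.74. Its controls (9.11 to 9.59) lay above all of its tumors (6.83 to 8.35), and tumor 3 was lowest. Rspo3 fell by 1.63 ± 0.42, which is 3.10-fold (adjusted p = 1.87e-05).

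Wnt9b and Wnt2, the ligands themselves, were dim. They were tested because of their control channels alone, which favours ratios below 0, so their p-values are no independent support for a fall. Wnt9b was well above background in all 8 control channels (6.96 to 7.53 on the log2 scale) and in 1 tumor channel, that of array 4. Every tumor signal (6.16 to 6.53) lay under every control signal. Its ratios were -0.83, -0.98, -0.78, -0.63, -0.84, -1.18, -0.86 and -0.45, with a mean of -0.82 ± 0.22 (adjusted p = 7.79e-05) that misses the size required. This size depends on the background correction. With a normexp offset of 16 the mean was -1.23 (adjusted p = 2.49e-05), and with the scanner's processed signals -2.87 (adjusted p = 4.38e-06), and both pass. Wnt2 was well above background in 4 control channels (arrays 1, 2, 3 and 8) and in 0 tumor channels. Its ratios were -1.15, -0.87, -0.91, -0.35, -0.23, -0.25, -0.25 and -0.59. The 4 measured controls gave the larger negative ratios. The mean was -0.57 ± 0.36 (adjusted p = 0.00371), with channel means of 6.63 in control and 6.05 in tumor. On each array the tumor signal was raised to the lowest signal that counts as above background where it lay under that level, and otherwise kept. Against the mean of these, the mean over all 8 controls was 1.39-fold higher for Wnt2. Only 4 of those controls and 0 of the tumor signals were well above background. The value is thus a rough estimate, not a lower bound, and it is open to dye bias. With the processed signals the ratio of Wnt2 was -2.61 (adjusted p = 6.06e-04) and passed.

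Tumor 3 had the lowest ratio of all arrays in 5 of the 6 genes called lower, and tumor 8 in the other, Stab2. For Gpr182 this was a near tie, as the ratios of tumors 3 and 7 both round to -3.15. The mean over these 6 genes was -3.27 on array 3 and -1.44 on array 1, with the others between -2.62 and -1.77. For Stab1, in contrast, tumor 3 had the highest ratio. Across the 8 arrays, the genes with ratios most like the mean of the 10 were Adam23 (r = 0.968), Ltf (0.966), Rhox5 (0.944), Cd55 (0.938) and Tinf2 (0.932). They are the top 5 of 14294 genes compared, so such values are a description. Adam23 and Cd55 were called lower (-1.94 ± 0.67 and -1.78 ± 0.57), and the others were not called.

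To see whether the falls were shared by endothelial genes in general, the mean ratio of 29 genes that most endothelial cells express was subtracted on each array before the same test across all genes. This mean ran from -0.58 (array 8) to 0.69 (array 3). The same number of genes, 6, were called lower and 0 higher, against 5.83% and 9.84% of all genes, and they were again Clec4g, Oit3, Bmp2, Gpr182, Rspo3 and Stab2. Relative to the endothelial mean, Clec4g was lower by -3.11 ± 1.27, Oit3 by -2.79 ± 0.86, Bmp2 by -2.50 ± 0.72 and Gpr182 by -2.11 ± 1.31 on the log2 scale. The differences of Rspo3 (-1.62 ± 0.75) and Stab2 (-1.42 ± 0.67) passed too, and the largest adjusted p of the 6 was 1.58e-04. Those of Stab1 (-0.20 ± 0.43) and Lyve1 (0.44 ± 1.45) did not. Wnt9b (-0.80 ± 0.54) and Wnt2 (-0.56 ± 0.69) stayed under the required size, with adjusted p of 0.00483 and 0.0597.

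Of the 29 endothelial genes, 2 were higher, 1 was lower and 26 were not called, with a median ratio of -0.05 beside 0.03 over all genes. The adhesion molecule Pecam1 (0.24 ± 0.61) and the endothelial cadherin Cdh5 (0.49 ± 0.72) did not pass. The VEGF receptor Kdr was below 0 on all 8 arrays but too small in size for a call (-0.45 ± 0.22, adjusted p = 0.00275). A second tested probe of Kdr had a mean of -0.83. The genes that passed were the receptor Cd93 (1.59 ± 0.76), the sialomucin Emcn (1.18 ± 0.69) and the phosphatase Ptprb (-1.29 ± 0.35). Genes of capillary and angiogenic endothelium were higher in 9 of 17 and lower in 0, with a median of 1.25. Esm1 rose by 4.71 ± 1.54, the fatty acid carrier Fabp4 by 3.72 ± 1.04, Cd34 by 3.11 ± 0.95 and the peptide ligand Apln by 2.51 ± 1.73. Cd34 had a second tested probe at 0.72, and Apln was well above background in 3 controls.

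Among 21 further genes known from sinusoidal endothelium, 8 were lower, 3 higher and 10 not called, with a median of -0.60. Ehd3, a protein of endocytic membranes (-2.30 ± 0.43), and the secreted DNase Dnase1l3 (-2.23 ± 0.59) fell. Gata4, the transcription factor that sets sinusoidal identity, had a ratio of -1.05 ± 0.25 and was below 0 on all 8 arrays (adjusted p = 2.72e-05). With median centring it stood at -0.99, just under the size for a call. The rises were Ramp3 (2.21 ± 0.80), a partner of the adrenomedullin receptor, and Bmper (2.14 ± 1.75), a secreted BMP modulator. The other was Kcnj8 (1.02 ± 0.81), named for completeness after its value was seen, which lost its call without array 2 (0.89) or array 3 (0.83). Bmper lost its call on slide row 1 alone (adjusted p = 0.130).

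**Figure D3:**
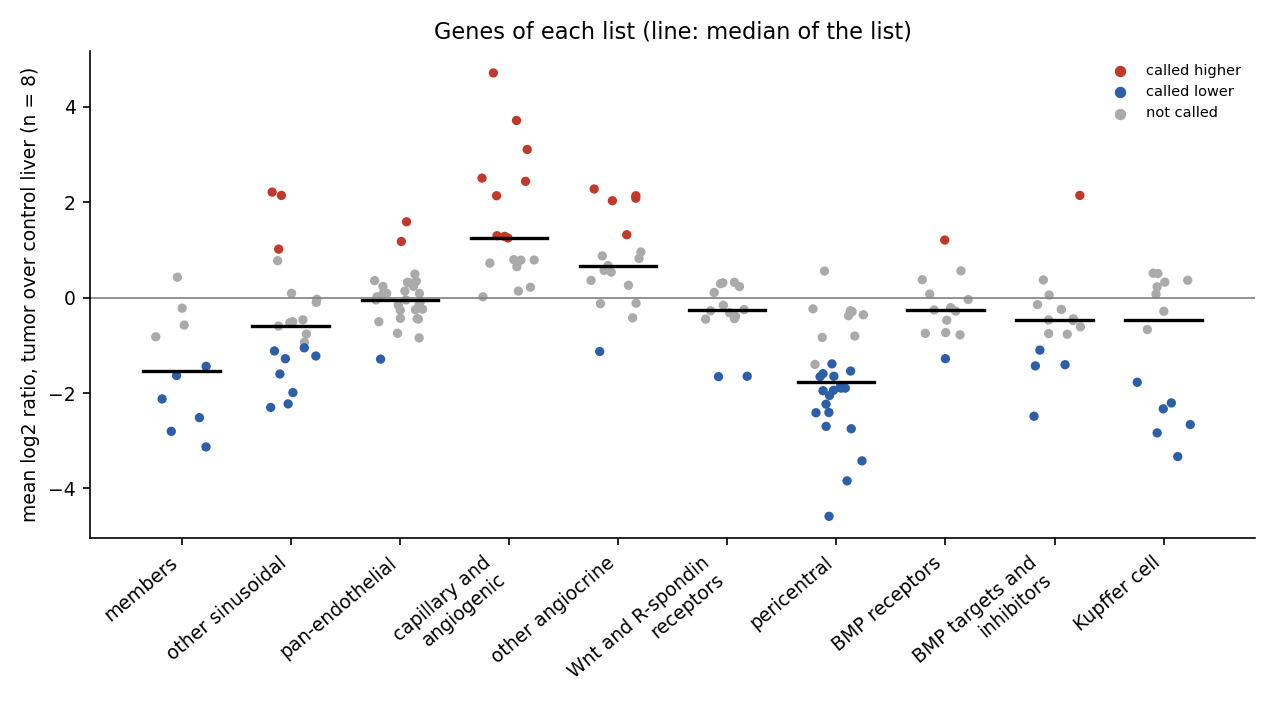
Mean log2 ratio of tumor over control liver over 8 arrays for the 10 genes ("members") and for the genes of 9 lists, with 1 point per gene and a line at the median of each list. Red and blue points were called higher and lower. The pan-endothelial list is centred near 0 (median -0.05), the capillary list lies above it (1.25), and the pericentral list below (-1.76).

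Of 14 tested Wnt and R-spondin receptors and their ubiquitin ligases, 2 passed as lower and 0 as higher (median -0.26). Over all genes tested, 5.94% were lower and 9.54% higher. The R-spondin receptor Lgr5 fell by 1.65 ± 0.88 and the ligase Rnf43 by 1.66 ± 0.96, each on 7 of 8 arrays, while Lgr4 had a ratio of -0.16 ± 0.49. Lgr5 and Rnf43 are Wnt targets as well and are also counted among the pericentral genes. Of 7 tested secreted Wnt inhibitors, Frzb was higher (1.36 ± 0.55) and 0 were lower. Among 28 tested pericentral genes 19 fell, 0 rose and the median was -1.76. On slide row 2 alone (arrays 5 to 8) 8 were called. The calcium-binding Rgn (-4.58 ± 1.70), Cyp2e1 (-3.84 ± 1.55), the sulfotransferase Sult5a1 (-3.42 ± 1.13) and the transcription factor Tbx3 (-2.75 ± 1.63) fell most. Glutamine synthetase, Glul, fell by 2.05 ± 1.31. Axin2, a general Wnt target, was not well above background in any tumor channel and was measured in 4 controls. Its ratio of -0.23 ± 0.19 was too small for a call. Among the 9 pericentral genes not called, Notum (-0.38 ± 0.35) and Nkd1 (-0.80 ± 0.80) were well above background in both channels of all 8 arrays. A second tested probe of Nkd1 had a mean of -0.21. Slc13a3, also not called, had a mean ratio above 0 (0.56 ± 0.98). They are named after their values were seen.

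On the BMP side, beside 9.54% higher and 5.94% lower of all genes, 1 of 13 tested receptors and cofactors was higher and 1 lower. These were the type I receptor Bmpr1a (1.21 ± 0.29) and the activin receptor Acvr2b (-1.28 ± 0.43). Of 15 tested targets and inhibitors, 4 passed as lower and 1 as higher (median -0.48). The hepcidin gene Hamp fell by 2.48 ± 1.02, below 0 on all 8 arrays (adjusted p = 1.65e-04). The transcription factor Atoh8 (-1.43 ± 0.81) and Smad9 (-1.40 ± 0.70, well above background in 2 tumors) also fell, while Bmper was the rise. The fourth fall, Id3 (-1.10 ± 0.58), is named after its value was seen. Id1, a target often used to read BMP signalling, had a ratio of -0.14 ± 1.06 and did not pass (adjusted p = 0.729).

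Across the 8 arrays, 4 relations between a ligand and its targets were computed, with exact two-sided permutation tests adjusted over the 4. Both values of each point share an array, a control RNA and a dye orientation. Wnt9b was well above background in 1 tumor channel and Wnt2 in 0, so their ratios say little about differences between tumors. The highest ratio of Wnt9b (-0.45) was on array 8, the dimmest in Cy5. Wnt9b against the mean of the pericentral genes had Pearson's r = 0.787 (exact p = 0.0199, adjusted p = 0.0795) and Spearman's rho = 0.571 (exact p = 0.151, adjusted p = 0.302). Without arrays 8 and 6, the farthest from its median, r was 0.576 (exact p = 0.207). Rspo3 against the same mean had r = 0.477 (exact p = 0.231, adjusted p = 0.308) and rho = 0.619 (exact p = 0.115, adjusted p = 0.302), and r was -0.0215 without arrays 4 and 3. The Rspo3 relation depended on array 8, where the pericentral mean was 0.10 against -2.73 to -0.84 elsewhere. Without array 8 the r of Rspo3 was 0.938, and without array 3 that of Wnt9b was 0.922. Each is the highest r that leaving out 1 array gave for that ligand. The arrays were picked after the values were seen, so both values are a description. Wnt2 had r = 0.269 (exact p = 0.539, adjusted p = 0.539) and rho = 0.357 (exact p = 0.389, adjusted p = 0.501), and r was -0.144 without arrays 1 and 3. Bmp2 against the mean of Hamp, Id1, Smad6, Smad7 and Atoh8 had r = 0.518 (exact p = 0.190, adjusted p = 0.308) and rho = 0.286 (exact p = 0.501, adjusted p = 0.501). That r was 0.0135 without arrays 3 and 8, and it rested on array 3. No relation passed on all 8 arrays. Within the slide rows of 4 arrays each, r was 0.621 and 0.950 for Wnt9b, 0.993 and -0.406 for Rspo3, 0.819 and -0.963 for Wnt2 and 0.643 and -0.289 for Bmp2.

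**Figure D4:**
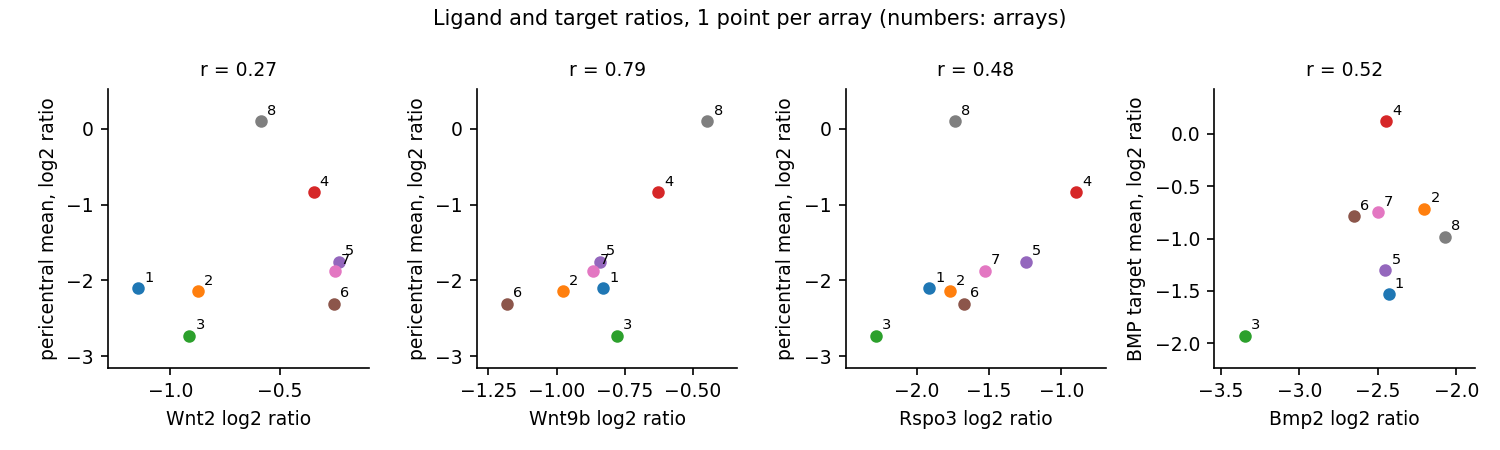
Log2 ratio of a ligand (x axis) against the mean log2 ratio of its targets (y axis), with 1 point per array, numbered by array; the targets are the pericentral genes for Wnt2, Wnt9b and Rspo3 and 5 BMP targets for Bmp2. Array 8 stands apart with a pericentral mean of 0.10, and array 3 has the lowest Rspo3 and Bmp2.

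Of 14 tested markers of Kupffer cells, the resident macrophages that sit on the sinusoidal wall, 6 were lower, 0 higher and 8 not called, with a median ratio of -0.48. Their mean ran from -1.78 on array 3 to -0.37 on array 1, the same arrays that held the lowest and highest means of the 6 sinusoidal genes called lower. Clec4f (-3.33 ± 1.11), Marco (-2.83 ± 2.22), Cd5l (-2.66 ± 1.52) and Vsig4 (-2.33 ± 1.16) fell most, and Marco lost its call on slide row 2 alone (-2.22, adjusted p = 0.136). Other macrophage genes of the list, named after their values were seen, had ratios above 0 that were too small for a call: the complement genes C1qa (0.51 ± 0.38, adjusted p = 0.00839), C1qb (0.51 ± 0.36, adjusted p = 0.00677) and C1qc (0.37 ± 0.24, adjusted p = 0.00893). Adgre1 (0.33 ± 0.60) and the receptor Csf1r (0.07 ± 0.56) did not pass the test. Among 12 hepatocyte genes 3 fell, 0 rose and the median was -0.65. Of 13 stellate cell genes, 3 were higher and 2 lower, and of 7 tested bile duct genes, 3 were higher and 0 lower. The shares over all genes tested were 9.54% higher and 5.94% lower. The part of these cell types in the ratios of the sinusoidal genes was not tested. Without array 8, whose control held muscle transcripts, the mean ratio of Clec4g was -3.00, that of Oit3 -2.77, of Bmp2 -2.58, of Gpr182 -2.13, of Rspo3 -1.62 and of Stab2 -1.33, and all 6 were still called.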

How the data were processed

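RNA of 8 tumors and of control liver was hybridised to 2-colour Agilent arrays, each read with Feature Extraction 10.9 per the submitters' processing notes. The deposited files hold red and green median signals and local background as linear intensity, and the scanner's log10 ratio of red over green, per the file headers. The plan allowed mean or median signals, and the files gave medians.

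From these, limma 3.58.1 (R 4.3.3, with data.table, version 1.17.8) applied normexp background correction (offset 50) and loess within each array, with control and outlier spots at weight 0. Spots of a probe were averaged. Of 55681 probes, 26582 were named through their RefSeq accession and 10 by the file's own name. Testing required a probe to exceed background clearly in the red or the green channel of 4 or more arrays, and a gene took its brightest tested probe. Ratios were tested against 0 with lmFit and eBayes, with Benjamini-Hochberg adjustment over 14312 genes. A call needed an adjusted p under 0.05 and a log2 ratio of at least 1 in size. Channel signals are after loess and Aquantile scaling. No spot of the probes was saturated. The method was tested on simulated data. The 10 genes and all lists were chosen with earlier results of these data known. The text names the 10 genes, up to 4 called genes of largest change in each list, 11 preset pathway genes and the 5 genes most like the mean of the 10. Alternatives changed the background correction, normalization, filter, probe rule, model and arrays used. Leaving out arrays 7 and 8, single slide rows and averaging arrays 1 and 2 were chosen after seeing the data. No probe for miR-122 was analysed here.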

Additional observations from a re-analysis of the deposited data

Results flagged for a closer look

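In 30 sets of 8 values (the ratio, tumor signal and control signal of each of the 10 genes), 6 had a highest or lowest value set apart from the rest by more than Dixon's critical value for 8 samples. Chance gives about 1 in 20 such sets, and the values of 1 gene are not independent. The log2 ratio of Gpr182 on array 1 was 0.39, with the others between -3.15 and -1.74, and its tumor signal there was 12.82, with the others between 8.67 and 10.49. The log2 ratio of Bmp2 on array 3 was -3.35, with the others between -2.65 and -2.07, and its tumor signal there was 7.52, with the next lowest at 8.49. The tumor signal of Wnt2 on array 8 was 6.33, with the others between 5.95 and 6.08, all of them not well above background. The control signal of Wnt9b on array 6 was 7.53, with the others between 6.96 and 7.18.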

How the results depend on the processing

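Across 23 alternatives, 0 of the 10 genes were called higher. The number called lower ran from 5 (slide row 1 alone) to 8 (processed signals) and was 6 whenever 1 array was left out. Relative to the endothelial mean it ran from 6 to 8. Over all genes, 850 were lower and 1366 higher, against 1531 and 2009 with the processed signals and 709 and 849 on slide row 2 alone. With the processed signals the difference of Stab1 from the endothelial mean turned to 0.0855, and on slide row 1 alone that of Lyve1 turned to -0.20; the cause was not tested. When 1 array was left out, r ran from 0.544 to 0.922 for Wnt9b, from 0.277 to 0.938 for Rspo3, from 0.118 to 0.469 for Wnt2 and from -0.0728 to 0.677 for Bmp2, and the log2 ratio of Id1 from -0.371 to 0.0712 (0.0272 without array 5). Without arrays 7 and 8, r for Rspo3 was 0.938. Axin2 was called with the processed signals (-1.82). Wnt2 was not tested where a probe had to be above background on all 8 arrays. Tumor and control were already paired on each array, and no further pairing of the 8 ratios was made. Low signal over background limits Wnt2, Wnt9b, Lyve1 and Axin2.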

Other observations

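Other signals that sinusoidal endothelium can send were also read. Of 17 tested angiocrine genes beyond the 10, 5 were higher, 1 was lower and 11 were not called, with a median log2 ratio of 0.67 beside 0.03 over all genes. The basement membrane protein Nid1 rose by 2.28 ± 0.62 (SD, n = 8), although its 3 tested probes ranged from 0.41 to 2.28. The Tie2 ligand Angpt2 rose by 2.14 ± 1.39, the growth factor Nrg1 by 2.09 ± 0.36 and Wnt4 by 2.03 ± 0.94. The fall was Rspo1 (-1.13 ± 0.23), a relative of Rspo3 that was well above background in 3 tumors and all 8 controls. These genes are also made by other liver cells, whose part was not tested.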
